A study of Mus musculus with 6 samples.

Results

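The 10 genes described here encode regulators of the actin cytoskeleton that are best known from blood-derived cells, and their RNA was followed in the soleus muscle of *Mustn1* KO-first heterozygous (HET) and wild-type (WT) mice. The set holds *Lsp1*, *Cotl1*, *Gas7*, *Coro1a*, *Arpc1b*, *Was*, *Lcp1*, *Dock2*, *Rac2* and *Arhgdib*. These 10 genes were found by symbol among the 51912 genes counted, and all 10 were among the 14696 genes with enough reads for the comparison of genotypes. They were chosen from the difference between HET and WT in these same 6 mice. Their genotype values, and the counts of members that passed a test, are therefore only a description.

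HET mice carry 1 *Mustn1* tm1a allele, in which a cassette with the lacZ and neomycin genes interrupts the gene in all tissues, beside 1 intact allele. WT littermates carry no modified allele, and which mice shared a litter is not stated. All 6 mice were 8 weeks old, of the C57BL6/N strain and labelled male, with no other treatment in either group. The soleus, a postural calf muscle with many slow fibers, was sequenced with 1 library per mouse, 3 HET and 3 WT, at between 26790075 and 50368796 reads on genes. *Mustn1* itself was at 14.2 ± 2.33 normalized counts (CPM, counts scaled by the trimmed mean of M-values; mean ± SD, n = 3) in HET and 27.5 ± 3.89 in WT mice, with every HET mouse below every WT mouse. Against the label, every library held between 3858 and 9154 reads on *Xist*, the RNA of the inactive X chromosome, and between 0 and 12 reads in total on *Ddx3y*, *Kdm5d*, *Uty* and *Eif2s3y* of the Y chromosome. This held in both genotypes. *Was* is the member on the X chromosome, and a link of its values to sex was not tested.

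Leukocytes crawl, engulf particles and form contacts with other cells by building and dismantling branched networks of actin filaments just under the membrane. A small GTPase such as Rac is switched on by a guanine nucleotide exchange factor and held inactive in the cytosol by a GDP dissociation inhibitor. Active GTPases release proteins of the WASP and WAVE families, which in turn start the Arp2/3 complex, the machine that grows a new filament from the side of an old one. Bundling and capping proteins, coronins and cofilin-like proteins then shape the network or take it apart. Blood-derived cells use their own versions of many of these parts, while muscle fibers, fibroblasts and endothelial cells mostly use paralogs that are expressed everywhere. The label of the set is only partly specific to blood-derived cells, since *Gas7* was first studied in growth-arrested cells and neurons and *Arpc1b* and *Cotl1* are used by many cell types.

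Upstream sequences are shown for *Dock2*, *Was* and *Coro1a*, the members with a reference promoter window and a log2 fold change (HET minus WT) above 1.2, to give the start-site context of genes that were high together. RefSeq windows on GRCm38.p6 were at hand for 6 of the 10 members. Capitals mark AGGAAGT on either strand, a form of the ETS site (the family of PU.1). The 250 bases before an annotated start are written 5′ to 3′ on the gene's strand. They come from chr11:34783906-34784155 (minus strand, *Dock2*), chrX:8090492-8090741 (minus strand, *Was*, with its last bases inside the annotated first exon) and chr7:126704817-126705066 (minus strand, *Coro1a*). The *Coro1a* window is 1 of 2 for that gene, and both lie inside the gene's annotated span, since 1 annotated transcript starts farther upstream.
Dock2: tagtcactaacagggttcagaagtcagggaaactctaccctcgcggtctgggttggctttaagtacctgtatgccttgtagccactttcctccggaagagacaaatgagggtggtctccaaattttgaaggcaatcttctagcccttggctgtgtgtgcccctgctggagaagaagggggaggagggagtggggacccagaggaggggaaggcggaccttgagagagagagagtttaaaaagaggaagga
Was: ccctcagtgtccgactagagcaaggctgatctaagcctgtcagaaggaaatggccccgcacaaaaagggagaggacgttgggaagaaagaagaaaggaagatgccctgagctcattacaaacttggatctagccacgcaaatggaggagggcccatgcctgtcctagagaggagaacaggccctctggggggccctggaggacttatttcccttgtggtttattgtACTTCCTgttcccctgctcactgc
Coro1a: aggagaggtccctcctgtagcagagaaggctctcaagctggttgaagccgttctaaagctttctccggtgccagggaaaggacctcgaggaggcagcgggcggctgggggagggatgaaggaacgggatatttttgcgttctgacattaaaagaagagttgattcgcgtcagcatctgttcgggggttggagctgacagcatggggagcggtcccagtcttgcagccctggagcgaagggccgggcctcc
The letters AGGAAGT, searched on both strands, were found once in the *Was* window, on the opposite strand and 24 bases before the start. They were absent from the *Dock2* and *Coro1a* windows shown. Over all 10 windows of the 6 members, 2 held them, 1 of *Was* and 1 of *Arhgdib*, beside 7.69% of 32851 mouse windows of the same length. The RUNX core TGTGGT was in 1 member window, of *Was*, against 14.0% of all windows, and TATAAA in 1, of *Arhgdib*, against 12.4%. These are matches of letters, other forms of the sites were not searched, and nothing on binding was measured.

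The members are described by role, from the switch to the filament. *Rac2* (ENSMUSG00000033220, chromosome 15, 78559167 to 78572783 on GRCm38, minus strand) encodes the Rac GTPase of blood cells. It was at 1.04, 1.53 and 1.34 CPM in HET mice 1 to 3 and at 0.569, 0.603 and 0.588 CPM in WT mice 1 to 3. The genotypes were fully apart, and the HET mean was 2.23 times the WT mean (log2 fold change 1.14, with a standard error, SE, of 0.29). These levels rest on few reads, 39, 41 and 59 in HET and 17, 17 and 29 in WT mice. The spread of the WT mice, a coefficient of variation of 2.93%, was below the 21.8% that counting alone gives at that depth (Poisson).

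*Dock2* (ENSMUSG00000020143, chromosome 11, 34226815 to 34783892, minus strand) encodes the exchange factor that loads Rac with GTP in migrating lymphocytes and other leukocytes. It had the largest log2 fold change of the 10 members, 1.29 (SE 0.26). Its values were 1.66, 1.53 and 1.75 CPM in HET and 0.602, 0.745 and 0.669 CPM in WT mice. The groups did not overlap, and the lowest HET mouse had 41 reads against at most 33 in a WT mouse.

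*Arhgdib* (ENSMUSG00000030220, chromosome 6, 136923655 to 136941899, minus strand) encodes the GDP dissociation inhibitor of blood cells, which works opposite to Dock2 by keeping GTPases off the membrane. It stood at 8.52, 10.1 and 9.55 CPM in HET and at 6.69, 9.08 and 7.03 CPM in WT mice. WT mouse 2 lay above HET mouse 1, which made *Arhgdib* the only member whose genotypes overlapped. Its log2 fold change was also the smallest of the 10, at 0.31 (SE 0.15).

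The step from GTPase to filament is represented by *Was* and *Arpc1b*. *Was* (ENSMUSG00000031165, chromosome X, 8081453 to 8090498, minus strand), the gene of Wiskott-Aldrich syndrome, encodes the WASP protein that starts the Arp2/3 complex in blood cells. It was read 32, 16 and 43 times in HET and 9, 7 and 23 times in WT mice, or 0.855, 0.596 and 0.98 CPM against 0.301, 0.248 and 0.466 CPM. The HET mice were higher without overlap, by a log2 fold change of 1.22 (SE 0.38), the widest error of the set. Without WT mouse 3, the highest of its group, the log2 fold change was 1.56.

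*Arpc1b* (ENSMUSG00000029622, chromosome 5, 145114215 to 145130705, plus strand) encodes a subunit of the Arp2/3 complex itself, for which *Arpc1a* encodes the alternative. Its level was 21.3, 26.2 and 23.3 CPM in HET and 14.2, 17.8 and 19.4 CPM in WT mice. All HET mice were above all WT mice, but by less than for most members, with a log2 fold change of 0.46 (SE 0.13).

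Among proteins that shape existing filaments, *Coro1a* (ENSMUSG00000030707, chromosome 7, 126699773 to 126707787, minus strand) encodes the leukocyte coronin, which binds filaments and the Arp2/3 complex. It was at 3.95, 4.40 and 4.03 CPM in HET and at 1.67, 2.09 and 1.62 CPM in WT mice. The HET mice lay close together and far above the WT mice, with a log2 fold change of 1.21 (SE 0.19). The coefficient of variation of the HET mice, 5.73%, was below the 8.23% that counting alone gives.

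*Cotl1* (ENSMUSG00000031827, chromosome 8, 119809222 to 119840544, minus strand) encodes coactosin-like protein, a filament-binding relative of cofilin that also binds the leukotriene-producing enzyme 5-lipoxygenase. It was at 6.52, 7.71 and 7.36 CPM in HET and at 3.31, 3.83 and 3.57 CPM in WT mice. The HET mean was 2.02 times the WT mean (log2 fold change 1.01, SE 0.15), and neither group spread far. The coefficient of variation of the WT mice, 7.27%, was below the 8.85% that counting alone gives, and that of the HET mice, 8.54%, above 6.23%.

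*Lsp1* (ENSMUSG00000018819, chromosome 7, 142460809 to 142494867, plus strand) encodes lymphocyte-specific protein, an actin-binding protein of leukocytes and endothelial cells. Its values were 28.0, 25.2 and 31.8 CPM in HET and 15.3, 17.7 and 16.1 CPM in WT mice. It had between 458 and 1395 reads per library, and the groups stood apart with a log2 fold change of 0.79 (SE 0.12).

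*Lcp1* (ENSMUSG00000021998, chromosome 14, 75131101 to 75230842, plus strand) encodes L-plastin, which bundles filaments in blood cells. It was at 7.08, 6.48 and 9.66 CPM in HET and at 5.42, 4.54 and 3.77 CPM in WT mice. HET mouse 3 was the highest, and the remaining HET mice lay nearer to the WT mice, giving a log2 fold change of 0.77 (SE 0.20).

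*Gas7* (ENSMUSG00000033066, chromosome 11, 67455437 to 67688990, plus strand) encodes growth arrest-specific 7, an F-BAR protein that links curved membrane to actin, in neurites and at phagocytic cups among other places. It was at 14.7, 16.7 and 19.5 CPM in HET and at 6.69, 9.11 and 8.35 CPM in WT mice. No value was shared between the groups, and the log2 fold change was 1.07 (SE 0.15).

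**Figure D1:**
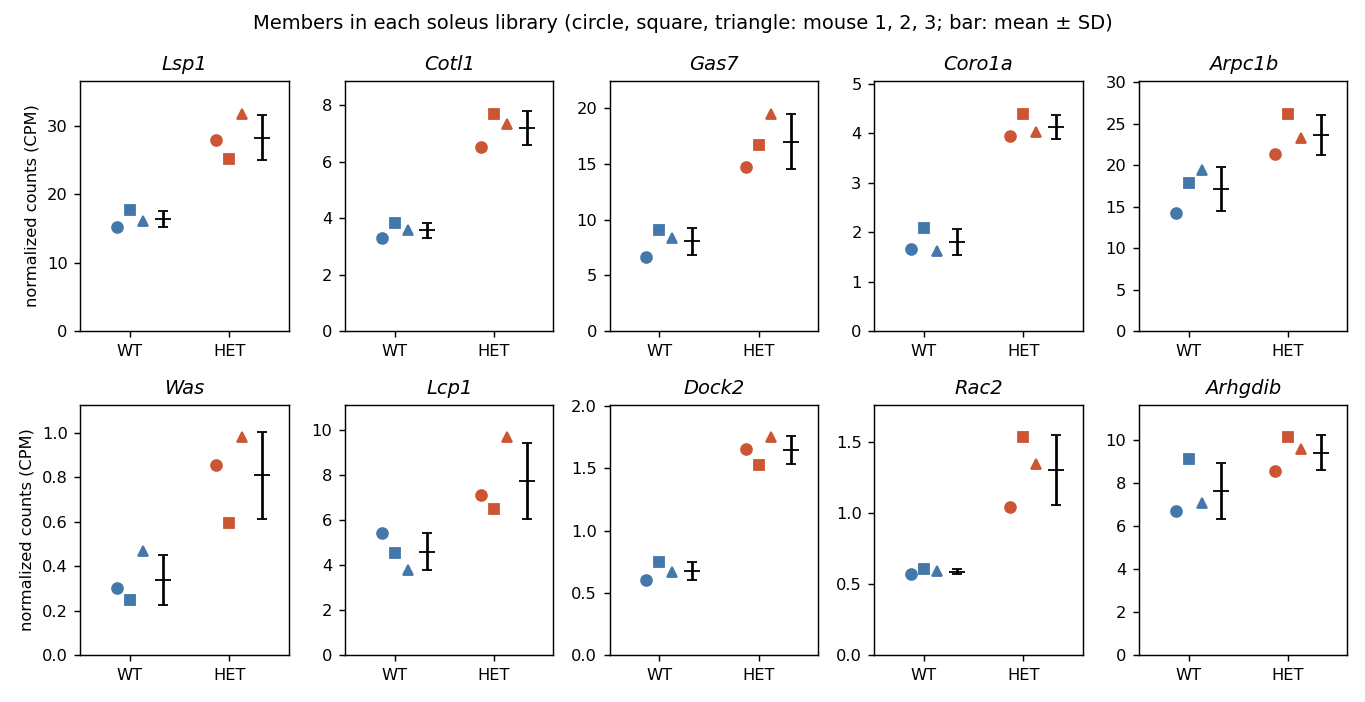
Normalized counts (CPM, each vertical axis from 0) of the 10 members in WT (blue) and HET (orange) mice. Circles, squares and triangles are mice 1, 2 and 3 of a genotype and the black bar is the mean ± SD over 3 mice. In 9 of the 10 panels all HET mice are above all WT mice, the exception being *Arhgdib*.

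Of the 10 members, 9 had every HET mouse above every WT mouse, a pattern shown by 1109 or 7.55% of the 14696 genes tested. Of the 10, 4 passed an adjusted p of 0.05 as higher in HET in edgeR's quasi-likelihood test across all genes (*Lsp1*, *Cotl1*, *Gas7* and *Coro1a*), beside 21 or 0.143% of all genes tested. In the opposite direction 0 of 10 members passed, beside 1 gene or 0.0068% of those tested. limma-voom called 0 members, beside 3 of the 14696 genes tested as higher in HET. The fit with non-robust dispersion called 0 members, beside 6 genes higher, and DESeq2 called 6 members, beside 218 genes higher. The rule that chose the members used this contrast, so nothing is read from these counts. The calls rest on all 6 mice. No member, and no gene at all, passed when HET mouse 1, HET mouse 3, WT mouse 1 or WT mouse 2 was left out. Only *Lsp1* passed without HET mouse 2, beside 14 genes higher. Without WT mouse 3, *Lsp1*, *Cotl1* and *Gas7* passed, beside 77 genes higher. The median log2 fold change of the members was 1.04, against −0.02 over all genes tested, of which 45.6% were above 0.

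The members did not share 1 order of mice within a genotype. Among HET mice, mouse 1 was the lowest for 6 members and the highest for 0, mouse 2 was highest for 5 and lowest for 4, and mouse 3 was highest for the remaining 5. Among WT mice, mouse 1 was lowest for 7 members and mouse 2 was highest for 7. Averaged over members, log2 levels centred on the WT mean were 0.78, 0.86 and 0.99 in HET mice 1 to 3 and −0.10, 0.08 and 0.01 in WT mice 1 to 3.

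Levels can be compared between genes only per length, and for this the normalized count was divided by the kilobases of all annotated exons of a gene (RPKM). In WT soleus *Arhgdib* was the highest member per length, at 4.45 ± 0.757 RPKM (SD, n = 3). *Arpc1b* at 3.35 ± 0.516 and *Lsp1* at 3.17 ± 0.238 followed with overlapping mice, and then *Cotl1* at 2.24 ± 0.163. *Gas7* at 0.710 ± 0.109 and *Coro1a* at 0.645 ± 0.0930 overlapped as well, above *Lcp1* at 0.481 ± 0.0869. *Rac2* at 0.193 ± 0.00567 and *Was* at 0.142 ± 0.0477 also overlapped, and *Dock2* was the lowest at 0.0588 ± 0.00625 RPKM. The members highest per length, *Arhgdib* and *Arpc1b*, were those with the smallest differences between genotypes, and the lowest, *Dock2*, had the largest. Between these ends the order was not kept, since *Lcp1* had a smaller log2 fold change (0.77) than *Cotl1* (1.01). The members were chosen on the genotype difference, so nothing is read from this order. Exon lengths sum all annotated transcripts, 11425 bases for *Dock2* and 1707 for *Arhgdib*, so a gene whose soleus transcripts are shorter than that is understated per length.

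Each member of a family with a widely expressed form was then set beside its paralogs, which are not members and for which tests are given. The paralogs and all lists below were drawn up with earlier results of these data known, so their p-values only describe these mice. None of these paralogs passed the test in edgeR. A widely expressed form of each family (*Rac1*, *Dock1*, *Wasl*, *Arpc1a*, *Pls3*, *Coro1b*, *Arhgdia*) was higher per length than the member in every mouse. *Rac1*, the Rac GTPase of nearly all cells, was at 33.1 ± 1.04 RPKM in WT mice with a log2 fold change of −0.09 (SE 0.08, adjusted p = 0.878 by edgeR's quasi-likelihood test). Per length, *Rac1* was 174, 163 and 177 times *Rac2* in WT mice 1 to 3 and 87.6, 65.2 and 67.9 times *Rac2* in HET mice 1 to 3, with no overlap. The members were chosen on the genotype difference, so lower ratios in HET mice, here and below, largely restate that choice. *Rac3* had a log2 fold change of −0.34 with a standard error of 0.38 (edgeR adjusted p = 0.915).

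The exchange factors were compared in the same way. *Dock1*, which loads Rac in most tissues and takes part in myoblast fusion, had a log2 fold change of −0.01 (SE 0.11, adjusted p = 0.991 by edgeR). Per length it was 37.8 ± 1.61 times *Dock2* in WT and 15.3 ± 1.92 times in HET mice. *Dock5* was close to *Dock2* in level, 2.29 ± 0.285 times as high in WT and 1.04 ± 0.269 times in HET mice, with a log2 fold change of 0.13 (SE 0.26, adjusted p = 0.959 by edgeR).

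*Wasl*, which encodes N-WASP, the WASP of most cells, had a log2 fold change of −0.10 (SE 0.10, adjusted p = 0.897 by edgeR) and stood at 38.1 ± 12.8 times *Was* in WT and 14.1 ± 2.68 times in HET mice. *Arpc1a* had a log2 fold change of −0.03 (SE 0.10, adjusted p = 0.976 by edgeR), and its level per length was 3.75 ± 0.484 times that of *Arpc1b* in WT and 2.64 ± 0.324 times in HET mice. *Pls3*, the plastin of non-blood cells, had a log2 fold change of 0.08 (SE 0.15, adjusted p = 0.954 by edgeR), with a ratio to *Lcp1* of 28.0 ± 5.85 in WT and 17.0 ± 0.741 in HET mice. *Pls1*, the plastin of intestinal and inner-ear epithelium, was below the filter on low counts at 0.0263 RPKM in WT mice.

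Coronins and GDP dissociation inhibitors completed the pairs. *Coro1b* was at 11.8, 11.8 and 15.5 times *Coro1a* in WT mice 1 to 3 and at 6.29, 6.22 and 6.99 times in HET mice 1 to 3, and its own log2 fold change was 0.21 (SE 0.12, adjusted p = 0.792 by edgeR). *Coro1c* had 0.18 (SE 0.11, adjusted p = 0.804 by edgeR). The highest coronin listed was *Coro6*, of the wider list below, at 208 ± 19.5 RPKM in WT mice, above *Coro1b* at 8.34 ± 1.08. For *Coro6* the log2 fold change was −0.11 (SE 0.10, adjusted p = 0.885 by edgeR). *Arhgdia*, the dissociation inhibitor of all tissues, was at 8.68 ± 1.24 times *Arhgdib* in WT and 7.96 ± 0.599 times in HET mice, the only one of the ratios plotted whose genotypes overlapped. Its log2 fold change was 0.21 (SE 0.12, adjusted p = 0.804 by edgeR), near the 0.31 of *Arhgdib*. *Arhgdig*, a form of brain and pancreas, was the reverse case, with *Arhgdib* at 18.9 ± 4.15 times its level per length in WT and 19.4 ± 6.37 times in HET mice and a log2 fold change of 0.26 (SE 0.37, adjusted p = 0.935 by edgeR).

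**Figure D2:**
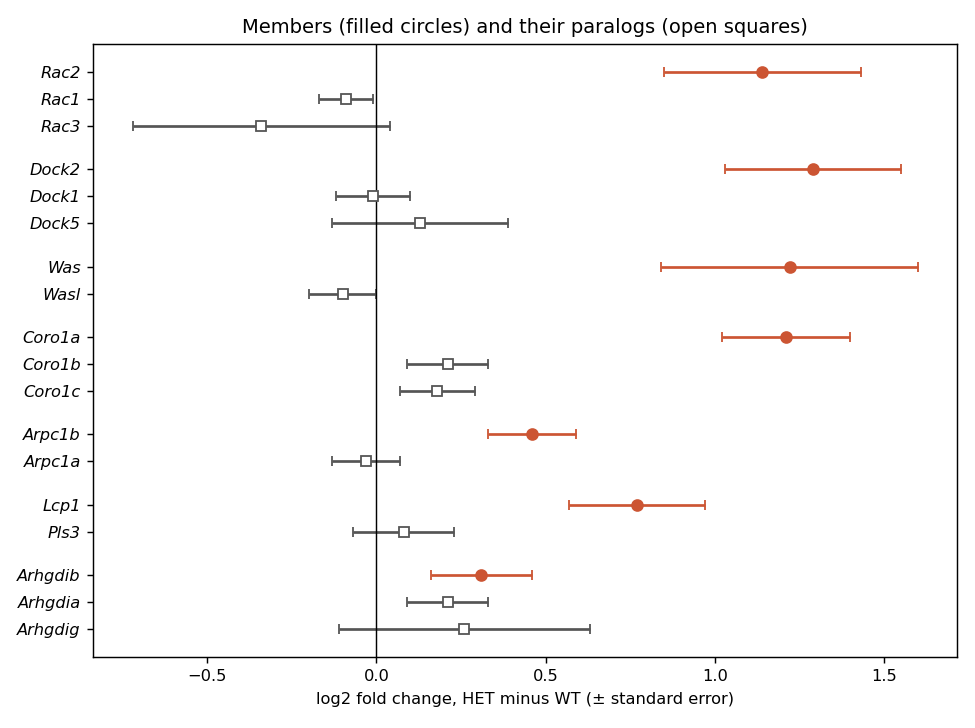
Log2 fold change (HET minus WT, horizontal axis) with its standard error for 7 members (orange circles) and the paralogs tested beside each (grey squares). *Rac1*, *Dock1*, *Wasl* and *Arpc1a* lie between −0.10 and −0.01, while the members above them lie between 0.46 and 1.29.

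**Figure D3:**
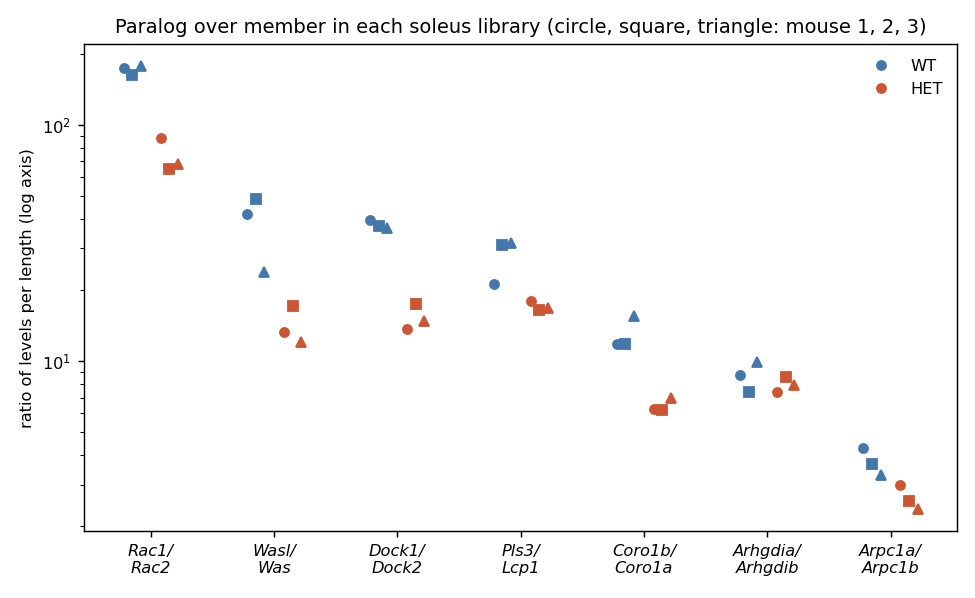
Ratio of the level per length of a widely expressed paralog to that of the member, on a log axis, in each WT (blue) and HET (orange) mouse, with circles, squares and triangles for mice 1, 2 and 3. The ratio is highest for *Rac1* over *Rac2*, at 171 ± 7.46 in WT and 73.6 ± 12.2 in HET mice, and overlaps between genotypes for *Arhgdia* over *Arhgdib*. Lower ratios in HET mice largely restate the genotype difference on which the members were chosen.

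Over the wider list of 22 paralogs, 21 were tested and 0 passed in edgeR, with 2 higher and 0 lower at an unadjusted p under 0.05 (5.76% and 2.0% of all genes tested), 1 (*Dbn1*) higher in DESeq2 and 0 in limma-voom. Their median log2 fold change was 0.18, from −0.34 for *Rac3* to 1.38 for *Wasf1*, a WAVE protein best known from brain (SE 0.50, adjusted p = 0.444 by edgeR). In 3 of them, *Coro2b*, *Wasf1* and the drebrin gene *Dbn1*, all HET mice lay above all WT mice, beside 7.55% of all genes tested. *Dbn1* encodes an actin-binding protein with a domain related to that of coactosin, and its log2 fold change was 0.68 (SE 0.13, adjusted p = 0.0855 by edgeR).

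The shared machinery on which the members act showed no call. All 8 other Arp2/3 subunits listed had log2 fold changes between −0.11 (*Arpc5l*) and 0.12 (*Arpc3*), with a median of 0.01. The 12 cofilin-like and actin monomer-binding proteins had a median of 0.03, from −0.19 for *Cfl2*, the muscle cofilin, to 0.30 for the thymosin gene *Tmsb10*. In both lists 0 genes passed in edgeR, 0 in DESeq2 and 0 in limma-voom. At an unadjusted p under 0.05 there was 1 higher gene among the cofilin-like and monomer-binding proteins and 0 among the Arp2/3 subunits, and 0 lower in both lists. Of the cofilin-like and monomer-binding proteins, 1 had all HET mice above all WT mice (7.55% of all genes tested) and 1 all HET mice below.

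Other cytoskeletal regulators known from leukocytes ranged widely. Of 30 listed, 28 were tested (*Gmfg* and *Tbc1d10c* had too few reads), and the median log2 fold change was 0.48. Above 0 lay 24 of the 28, beside 45.6% of all genes tested. In 12 of the 28 all HET mice lay above all WT mice, beside 7.55% of all genes tested. In 0 of the 28 all HET mice lay below, a pattern not counted over all genes. *Cyth4*, which encodes a cytohesin that activates ARF GTPases in leukocytes, was the only one to pass. It was at 3.23, 3.28 and 3.97 CPM in HET and 1.34, 1.56 and 1.22 CPM in WT mice, or 1.36 as log2 fold change (SE 0.21, adjusted p = 0.0452 by edgeR), and it did not pass in any of the 6 fits that left out 1 mouse.

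At an unadjusted p under 0.05, 13 of the 28 were higher and 0 lower, beside 846 higher and 294 lower of the 14696 genes tested. DESeq2 called 5 higher, which were *Cyth4*, *Nckap1l*, *Myo1f*, *Arhgap30* and *Capg*, and limma-voom called 0. *Fyb*, the adaptor ADAP that links antigen receptors to integrins and actin, had the highest log2 fold change of the list, 1.53 (SE 0.36, adjusted p = 0.168 by edgeR). The lowest was that of *Rhoh*, a GTPase of lymphocytes, at −0.28 (SE 0.29), where HET and WT mice overlapped. *Nckap1l*, the blood-cell subunit of the WAVE complex also called HEM1, was at 3.13, 2.91 and 3.33 CPM in HET and 1.0, 1.67 and 1.22 CPM in WT mice (log2 fold change 1.28, SE 0.23, edgeR adjusted p = 0.0785). *Capg*, the capping protein of macrophages, had 0.72 (SE 0.13, adjusted p = 0.0785 by edgeR). These last 2 genes were named after their values were seen.

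**Figure D4:**
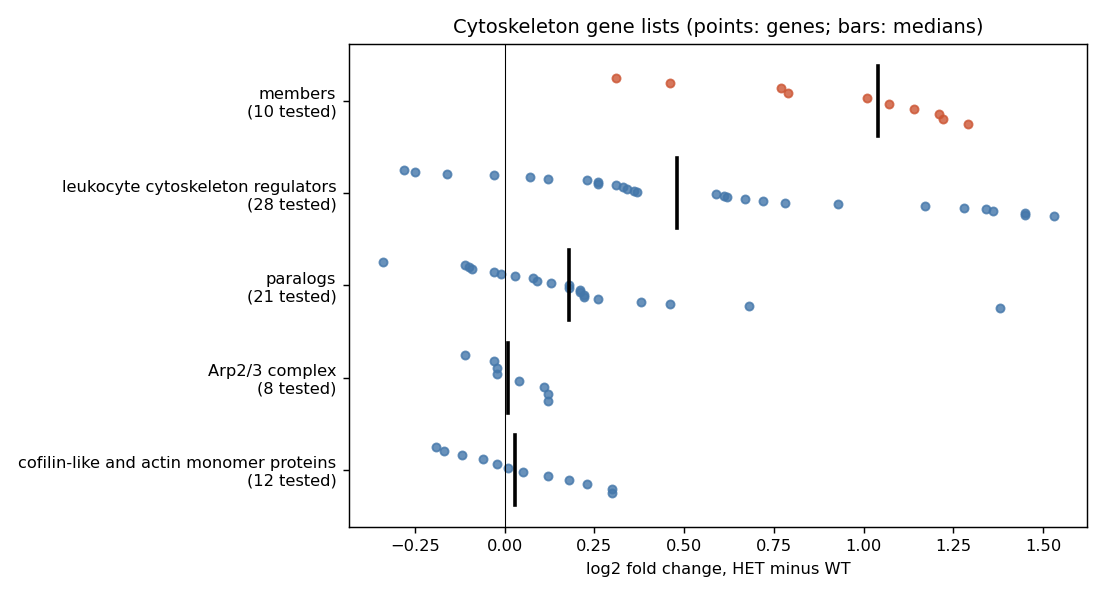
Log2 fold change (HET minus WT, horizontal axis) of every tested gene of the members (orange) and of 4 lists of cytoskeletal genes (blue), with black bars at the medians. The medians fall from 1.04 in the members and 0.48 in other leukocyte regulators to 0.18 in the paralogs and between 0.01 and 0.03 in the shared machinery. The members were chosen on this difference, and the lists with earlier results of these data known.

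Markers of blood-derived cells were read in the same mice, because a whole muscle holds many cell types. In such bulk RNA more cells of a type and more RNA per cell cannot be told apart. The members, summed, were at 101 ± 7.85 CPM in HET and 60.7 ± 5.53 CPM in WT mice. The 5 pan-leukocyte markers (*Ptprc*, *Cd53*, *Cd52*, *Laptm5* and *Cd48*) summed to between 12.1 and 14.5 CPM in HET and between 4.42 and 5.92 CPM in WT mice. All 5 had every HET mouse above every WT mouse, beside 7.55% of all genes tested. The median log2 fold change of the 5 was 1.56, and *Laptm5* passed (1.31, SE 0.20, edgeR adjusted p = 0.0452). In this list limma-voom called 0 and DESeq2 called 4, with *Ptprc*, *Cd53* and *Cd48* beside *Laptm5*.

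The 12 macrophage markers summed to between 93.0 and 132 CPM in HET and between 54.1 and 63.0 CPM in WT mice. Their median log2 fold change was 1.34, from −0.10 for *Mertk* to 2.14 for *Fcgr1*. In 10 of the 12 all HET mice lay above all WT mice, beside 7.55% of all genes tested. *Csf1r*, *Adgre1*, *C1qa*, *C1qb* and *Lyz2* passed as higher in edgeR, *C1qa* with a log2 fold change of 1.48 (SE 0.14, adjusted p = 0.0130) and *Csf1r*, the receptor on which macrophages depend, with 1.39 (SE 0.20, adjusted p = 0.0452). Of these 5, limma-voom called only *C1qa* and *Lyz2*, while DESeq2 called 7 of the 12. No gene of these lists passed in edgeR when HET mouse 1, HET mouse 3, WT mouse 1 or WT mouse 2 was left out, since no gene at all did. Their part in the members' values was not tested.

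Lymphocyte markers had few reads. None of the 9 T cell or 6 NK cell markers had enough reads to be tested, with at most 13 and 14 reads on any of them in a library. The summed T cell markers lay between 1.16 and 1.20 CPM in HET and between 0.709 and 0.922 CPM in WT mice, and the summed NK cell markers between 0.373 and 0.641 CPM and between 0.0669 and 0.243 CPM. Of the 6 B cell markers only *Cd79b* was tested (log2 fold change −0.31), and the list's sums, from 0.484 to 1.39 CPM in HET and from 0.993 to 1.07 CPM in WT mice, overlapped. Of the 8 neutrophil markers only *Csf3r* was tested (log2 fold change 0.05), *Ly6g* had 0 reads in every library, and the sums overlapped, from 3.99 to 6.54 CPM in HET and from 4.33 to 4.58 CPM in WT mice.

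Of the 6 mast cell markers 5 were tested and 0 passed in edgeR, and limma-voom called 0. At an unadjusted p under 0.05, 4 were higher (5.76% of all genes tested), and DESeq2 called 4 (218 higher of 14696 genes). In 4 of the 5 tested, all HET mice lay above all WT mice, beside 7.55% of all genes tested. The 6 markers summed to between 6.04 and 8.11 CPM in HET and between 2.82 and 4.40 CPM in WT mice. Their median log2 fold change, 1.99, was above those of the pan-leukocyte and macrophage markers, and ran from −0.07 for *Kit*, which held much of the sum, to 2.95 for the chymase gene *Cma1*. Dendritic cell markers summed to between 11.3 and 12.4 CPM in HET and between 11.6 and 13.7 CPM in WT mice, most of it from *Zbtb46*. That gene had all HET mice below all WT mice, with a log2 fold change of −0.25 (SE 0.13, adjusted p = 0.735 by edgeR). The other tested markers of that list, *Cd209a* at 2.89 (SE 0.69, adjusted p = 0.174 by edgeR) and *Itgax* at 1.19 (SE 0.47, adjusted p = 0.539 by edgeR), had all HET mice above all WT mice, and *Cd209a* passed in DESeq2. Erythroid and platelet markers, a measure of blood in the muscle, overlapped between genotypes at 75.7 to 122 CPM in HET and 85.4 to 136 CPM in WT mice. The platelet factor gene *Pf4* of that list had all HET mice above all WT mice, at 1.17 (SE 0.26, adjusted p = 0.131 by edgeR), and passed in DESeq2, and *Itga2b*, at 0.54 (SE 0.28), was also apart between genotypes. Endothelial markers overlapped, with a median log2 fold change of −0.06 over 7 genes, as did smooth muscle markers with 0.08 over 5. The fiber genes marking the labelled tissue had a median of −0.06 over 7. Among them *Myh4*, the fastest myosin, was at 44.7, 2040 and 167 CPM in HET mice 1 to 3 and at 1470, 1770 and 976 CPM in WT mice 1 to 3, so HET mice 1 and 3 stood far below the other mice (log2 fold change −0.91, SE 1.5). *Tnnt3*, fast troponin T, had all HET mice below all WT mice by a small step (−0.15, SE 0.08, adjusted p = 0.767 by edgeR). The part of these fiber genes in the members' values was not tested.

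Connective tissue markers were read in the same mice. The 7 fibroblast markers summed to between 1350 and 1970 CPM in HET and between 695 and 1050 CPM in WT mice, with a median log2 fold change of 0.60. The 6 tendon markers summed to between 331 and 586 CPM in HET and between 104 and 267 CPM in WT mice, with a median of 1.09. All HET mice lay above all WT mice in 4 of the 7 and in 5 of the 6, beside 7.55% of all genes tested. In both lists 0 genes passed in edgeR, while at an unadjusted p under 0.05 there were 6 and 4 higher and 0 lower (5.76% and 2.0% of all genes tested), and DESeq2 called 3 (*Dcn*, *Col3a1* and *Dpt*) and 0, limma-voom 0 and 0. Their part in the members' values was not tested either.

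**Figure D5:**
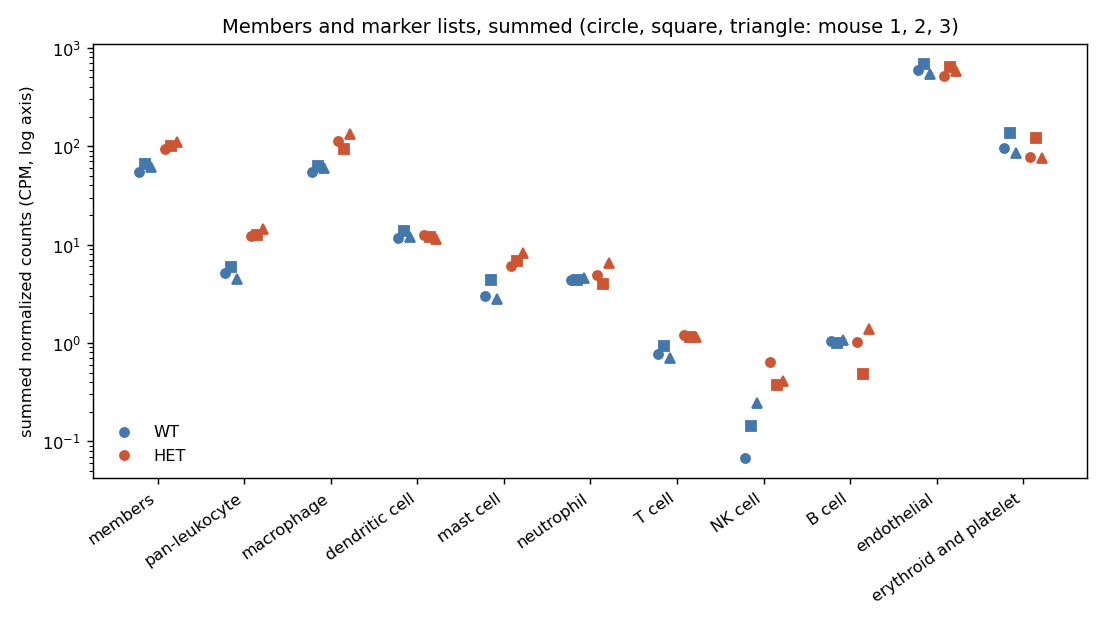
Summed normalized counts (CPM, log axis) of the 10 members and of 10 marker lists in each WT (blue) and HET (orange) mouse, with circles, squares and triangles for mice 1, 2 and 3. Members, pan-leukocyte, macrophage, mast cell, T cell and NK cell sums do not overlap between genotypes, while those of dendritic cells, neutrophils, B cells, endothelium, and erythroid cells and platelets do. The T, NK and B cell sums are at or below 1.39 CPM. Fibroblast and tendon sums, which are not plotted, do not overlap between genotypes either.

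Among 12397 other genes with a mean of at least 1 CPM, those whose 6 mouse values lay closest to the mean profile of the members were *Emp3*, *Ctsk*, *Dpysl3*, *Clmp*, *Rab7b* and *Apbb1ip*. Closeness was the root mean square difference on the log2 scale over the 6 mice. It was 0.101 for *Emp3*, a membrane protein gene, and at most 0.128 for the others, against a median of 0.661 over all genes compared. *Emp3* had a log2 fold change of 0.78 (SE 0.16) and *Ctsk*, which encodes the collagen-cleaving cathepsin K, 0.86 (SE 0.16). *Apbb1ip* encodes RIAM, an adaptor through which Rap1 GTPase acts on integrins and actin in blood cells, and had 0.81 (SE 0.21). By the same measure *Cotl1*, at 0.101, and *Lsp1*, at 0.102, were the members closest to their mean profile, and *Arhgdib*, at 0.417, was the farthest. This likeness follows from the genotype difference on which the members were chosen, and it is given without a test.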

How the data were processed

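Poly-A RNA of 6 soleus muscles was sequenced as stranded single-end libraries, 1 per mouse. The authors aligned reads with STAR 2.7.3a to GRCm38.p6 and deposited raw counts per gene from featureCounts 2.0.3 in reverse-stranded mode. They also deposited a normalized signal, the count divided by a DESeq2 size factor per library. Multiplied back, 100% of its values were whole reads within 0.001, and edgeR on those reads called 20 genes higher and 1 lower. The deposited DESeq2 comparison (fold changes and p-values) was not used. Columns were matched to mice by title.

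Values were computed from the raw counts in R 4.3.3 with edgeR 4.0.16 (filterByExpr with a minimum count of 10, TMM factors, robust quasi-likelihood test by genotype, two-sided, Benjamini-Hochberg over 14696 genes, threshold 0.05). Standard errors are the log2 fold change over the square root of F. Two-sided exact permutation of 3 mice against 3 cannot go below 0.1. P-values set the genotype difference against the spread between these mice, with that spread moderated across genes. Replicates differed by more than counting noise, with a chi-square per gene of 15 or more. Alternatives were RLE and upper-quartile factors, no filter, 10 reads in every library, DESeq2 1.42.0, limma-voom (limma 3.58.1), non-robust dispersion, the replicate block, length trends, each mouse left out and, added after seeing the data, the recovered reads. The steps were checked on simulated counts. Exon lengths came with the deposited raw counts, gene positions from GENCODE M21 and promoter windows from RefSeq, all on GRCm38.

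The members and lists were chosen with earlier results of these data known. Named singly were all members, their paralogs, the called and the extreme genes of each cytoskeleton list, the 6 closest profiles, and *Mustn1*, *Xist* and Y genes as label checks. Profiles used log2(CPM + 0.1). A further list of cytoskeletal genes entered the counts of listed genes and is not reported here. Genes named outside that rule are those of marker lists past the threshold or at the ends of their range, and those called by DESeq2. Also outside it are *Coro2b*, *Coro6*, *Dbn1*, *Nckap1l*, *Capg*, *Itgax*, *Itga2b* and *Tnnt3*, chosen after their values were seen.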

Additional observations from a re-analysis of the deposited data

How the results depend on the processing

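The median log2 fold change of the members stayed between 0.96 and 1.12 in all 17 alternatives, and of 169 recomputed member fold changes 0 reversed and 1 moved, *Was*, to 1.56 without WT mouse 3. *Was* was not tested with 10 reads required in every library. Another scaling shifted the median of all genes by less than 0.1. Counts of calls depended on the processing, from causes that were not tested. With no low-count filter, 386 genes were higher and 18 lower, with 7 members and 7 other listed cytoskeleton genes among the higher ones. DESeq2 called 218 higher and 8 lower, with 6 members and 6 listed genes. limma-voom called 3 higher and 0 lower, and non-robust dispersion 6 and 0, each with 0 members and 0 listed genes. With each mouse left out in turn, 0 to 77 genes were higher, 0 to 6 lower, 0 to 3 members higher and 0 listed genes higher. The count of listed genes lower was 0 throughout. At 7 to 43 reads per library, *Was* is limited by counting.

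Mice of the 2 genotypes share replicate numbers. Deviations of same-numbered mice correlated at 0.203, −0.00578 and −0.0349, and only number 1 paired best with itself. With so few mice per genotype, these values cannot tell whether same-numbered mice shared a litter or batch, and this was not tested. With the replicate block, 114 genes were higher and 2 lower, with 4 members and 2 listed genes higher. With the length trend removed as well, 140 were higher and 2 lower, again with 2 listed genes. The other alternatives left each count within 1.5 times.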
